A study of Danio rerio with 8 samples.

Results

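The genes described here encode the protein components of the cytosolic ribosome and some of their paralogs. They were chosen by name: every entry of the count table whose name begins with rpl or rps and a digit, with rpsa or with rplp, leaving out the S6 kinases (rps6k) and the rps19 binding protein (rps19bp). The rule took 83 of 36109 entries, 48 of the large subunit and 35 of the small subunit. All 83 passed the filter on low counts and were among the 22163 genes tested. The rule itself uses names and no measured value, but it was set with earlier results of these data known. It is case-sensitive and therefore left out the entry RPL37A, and it also left out faua and rack1, whose products belong to or sit on the ribosome.

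The study treated wild-type zebrafish embryos (Danio rerio, AB strain) with 3 µM E64d, a compound that enters cells and blocks cysteine proteases such as cathepsins and calpains, in embryo medium with PTU. Controls received DMSO, the solvent, at a stated 0.5% in both groups; the dilution of the 10 mM E64d stock alone carries 0.03%, and whether more solvent was added is not given in the sources used here. Treatment ran from 1 to 24 hours post-fertilization after the chorion had been nicked, and total RNA was taken from whole embryos in 4 pools of 7 embryos per group, so each value is an average over all tissues of 7 animals. The comparison asks what E64d did to gene expression, here to the mRNAs of the ribosomal proteins.

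Ribosomal proteins assemble with ribosomal RNA in the nucleolus into a large subunit, which forms peptide bonds, and a small subunit, which decodes the mRNA. Their mRNAs are among the most abundant in growing cells. In vertebrates these mRNAs start with a pyrimidine-rich tract through which mTORC1 and Larp1 control their translation and stability. Teleosts kept duplicate copies of some ribosomal protein genes, and others have a distant paralog with a role of its own.

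Libraries held 29422983 to 37309883 counts, and levels are given as CPM, a gene's count relative to the TMM-scaled library size. Counts of the members were deep: 80 of the 83 had at least 1000 counts in every library, and the other 3 were rps8b (18 to 88 counts), rpl9 (264 to 391) and rps27l (542 to 881). The members' share of all counts was 7.30%, 8.88%, 7.69% and 7.46% in DMSO replicates 1 to 4 and 7.27%, 7.59%, 7.39% and 7.26% in E64d replicates 1 to 4, means of 7.83% ± 0.715 and 7.38% ± 0.155 (SD, n = 4). DMSO replicate 2 was the highest and the E64d values overlapped those of the other DMSO libraries. Between libraries of the same replicate number the share was lower in E64d in all 4 pairs. That library also stood apart in its mitochondrially encoded counts, 0.847% of its total against 1.27% to 1.97% in the other 7, so fold changes that moved by more than 1.5 times without it are given both ways.

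**Figure D1:**
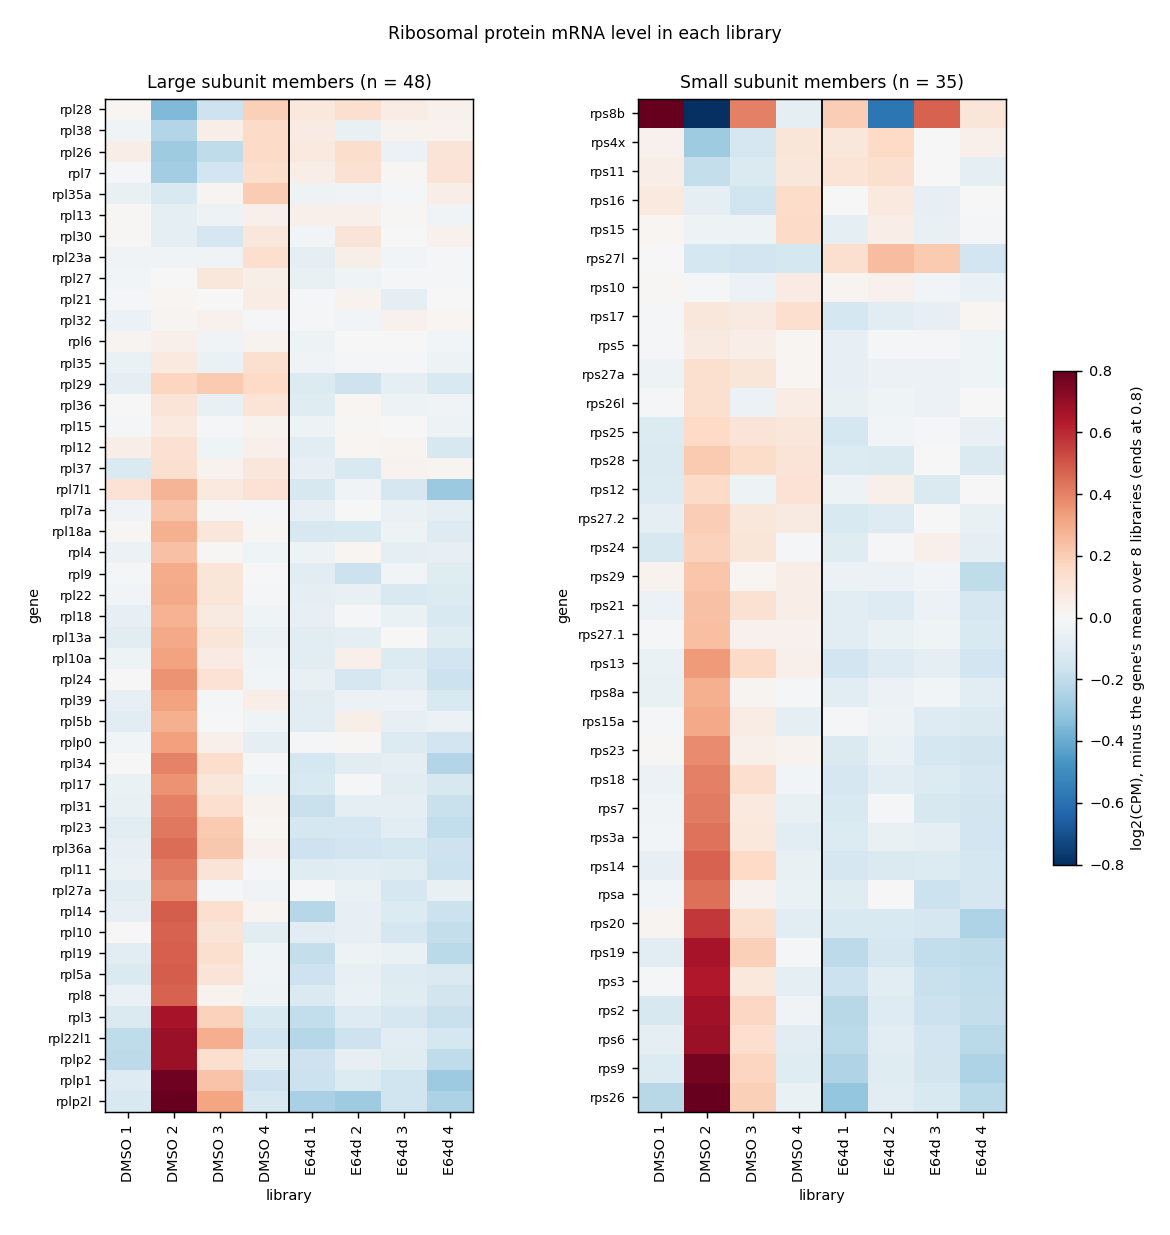
Level of each member in each of the 8 libraries, as log2(CPM) minus the gene's mean over the libraries, with large subunit members on the left, small subunit members on the right and the genes ordered by the ratio of DMSO replicate 2 to the other DMSO libraries. Most rows are reddest in DMSO replicate 2, which was the highest library for 61 of the 83 members, paler red in DMSO replicate 3, and pale blue in the E64d libraries.

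The members lay slightly lower in E64d embryos than in DMSO embryos, by a median log2 fold change of −0.15. Of them 1 passed the test, rpl7l1, a paralog of rpl7 whose yeast relative acts in ribosome assembly. Of the 83 members, 73 had a fold change below 0 (88.0%, against 48.3% of all tested genes), and the median over all tested genes was 0.01. The range ran from −0.54 for rplp2l to 0.23 for rps27l. In edgeR's quasi-likelihood test at an adjusted p under 0.05, 0 members were higher and 1 was lower, while 6.13% of all tested genes were called, 2.28% higher and 3.85% lower. At an unadjusted p under 0.05, 35 members were lower and 0 were higher, where 11.4% of all tested genes were lower by that measure. The 2 groups did not overlap for 22 members, all lower in E64d, where 14.4% of all tested genes did not overlap and 8.55% did so with E64d lower. The TMM factors behind the CPM were 0.928 to 0.993 in DMSO and 1.025 to 1.036 in E64d. Overlap in CPM, here and for single genes below, therefore depends on the scaling. It was not counted under library totals alone. The changes were small: the 95% interval of the fold change lay within 1.5-fold in either direction for 70 members and within 1.2-fold for 25.

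Without DMSO replicate 2 the median of the members was −0.08, still with 73 below 0, and 0 members were called in edgeR, where 5.47% of all tested genes were. At an unadjusted p under 0.05 in that fit, 22 of the 83 members were lower and 0 higher. Of all 22572 genes tested in it, 2174 were lower and 1806 higher by that measure. Under library totals alone the median was −0.06 and that of all genes 0.096. A change of scaling moves all genes by nearly the same amount. It therefore cannot test the distance between the members and the other genes. With 1 library left out at a time, 6 members were called lower without DMSO replicate 1 (rpl23, rpl29, rpl36a, rplp2l, rps13 and rps19) and 0 without any of the other 7. Over all tested genes, 836 were called lower without DMSO replicate 1.

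**Figure D2:**
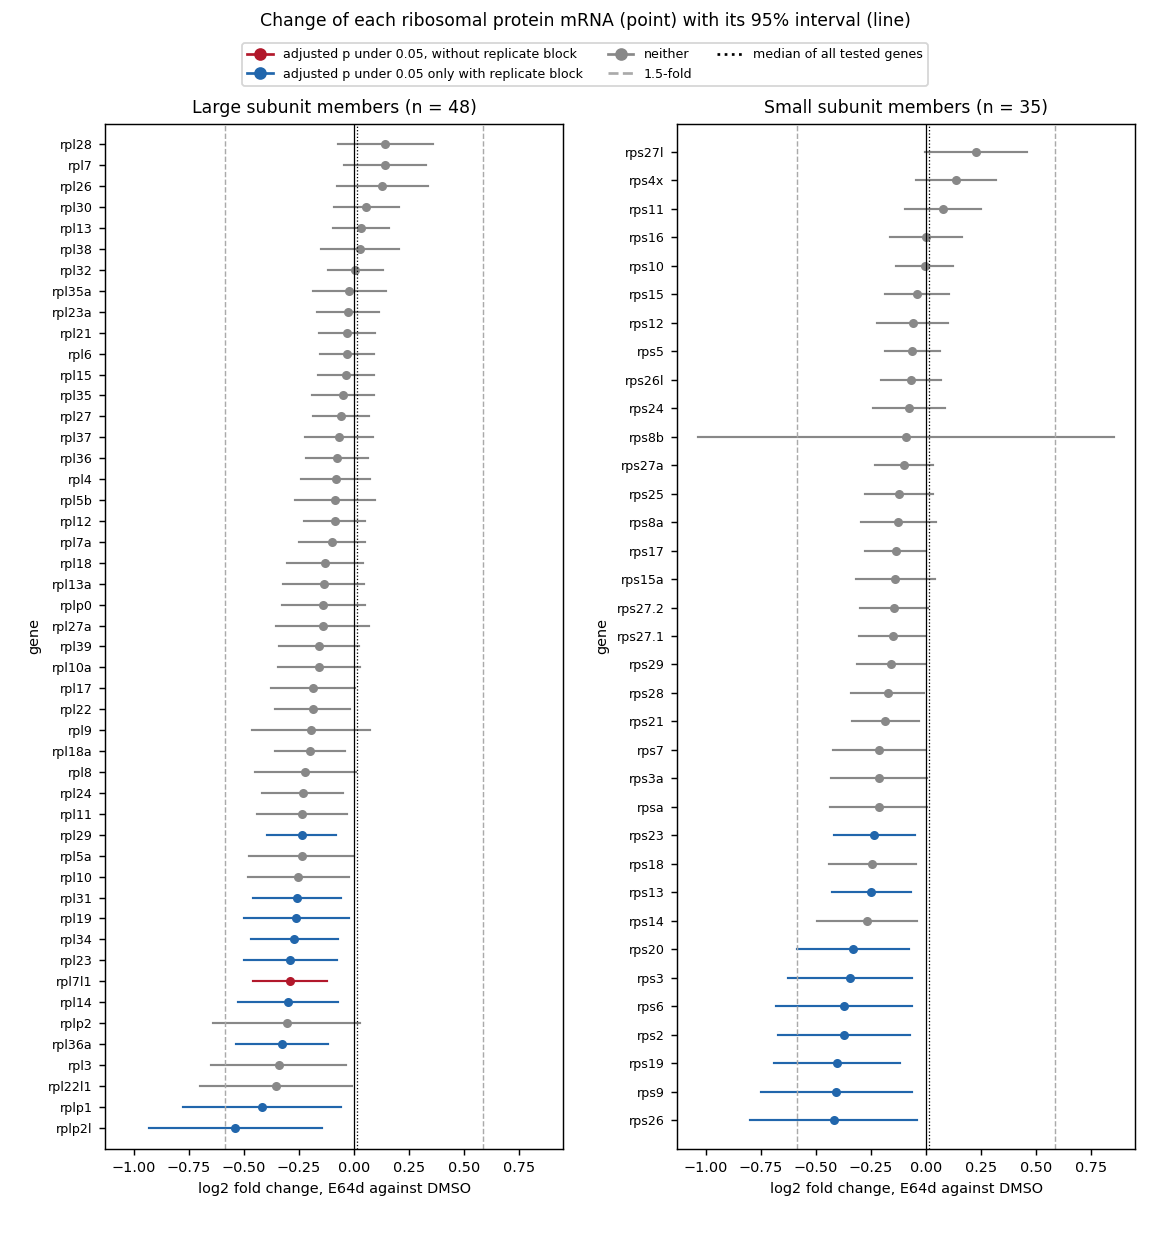
log2 fold change of each member, E64d against DMSO (horizontal axis), with its 95% interval from edgeR, large subunit members on the left and small subunit members on the right. The points range from −0.54 to 0.23 with 73 of 83 left of 0, and the interval of rpl7l1 is the one drawn in red. The 18 members in blue passed with the replicate number as a block and not in the edgeR test without it. Some of them also passed in other fits.

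Libraries with the same replicate number deviated together, and with that number as a block 19 members were called lower and 0 higher, 10 of the large and 9 of the small subunit, where 11.6% of all tested genes were called and 6.95% were lower. Their blocked log2 fold changes ran from −0.48 to −0.23, with adjusted p from 0.0131 to 0.0414 by edgeR. They were rpl7l1, rpl14, rpl19, rpl23, rpl29, rpl31, rpl34, rpl36a, rplp1 and rplp2l of the large subunit and rps2, rps3, rps6, rps9, rps13, rps19, rps20, rps23 and rps26 of the small subunit. A fit with number 2 left out of both groups was chosen after seeing the data. It reuses the other libraries and is no independent test of the 19. In it all 19 were called, at log2 fold changes from −0.29 to −0.16. The gene rpl3 was called too, where 6.91% of all tested genes were lower. With the block and library totals alone in place of TMM scaling, 2 of the 19 were called, rpl36a and rps19. The number called thus differed with the scaling. That change also moved the median log2 fold change of all genes, from 0.015 to 0.102. It therefore cannot test the distance between the members and the other genes. The share of all tested genes lower with the block and library totals alone is not set beside the 2. They are therefore not read as a result about the members.

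Among large subunit members, rpl7l1 is a paralog of rpl7 whose yeast relative Rlp7 acts in the assembly of the large subunit in the nucleolus. Its level was 92.4, 103, 90.2 and 92.5 CPM in DMSO replicates 1 to 4 and 78.1, 83.6, 77.6 and 69.3 CPM in E64d replicates 1 to 4. Every E64d library lay below every DMSO library. The log2 fold change was −0.29 ± 0.0777 (SE), with an adjusted p of 0.0446 by edgeR. The call was lost when any 1 of the 8 libraries was left out, at adjusted p from 0.0529 to 0.157 and fold changes from −0.33 to −0.24, under library totals alone (adjusted p = 0.126) and with no filter on low counts (adjusted p = 0.0568). It was kept with the block (adjusted p = 0.0131 by edgeR).

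The member rpl36a encodes a protein near the exit site for tRNA. Its level was 612, 876, 745 and 655 CPM in the DMSO libraries and 571, 576, 581 and 573 CPM in the E64d libraries. The E64d pools were nearly equal and all lay below the lowest DMSO pool. Its log2 fold change was −0.33 ± 0.0971 (SE) with an adjusted p of 0.0682 by edgeR, and −0.22 (adjusted p = 0.0773) without DMSO replicate 2. For rpl29, a small basic protein on the surface of the large subunit, DMSO replicate 2 was not the highest library. It measured 279, 330, 339 and 326 CPM in DMSO and 271, 261, 279 and 269 CPM in E64d, where DMSO replicate 1 and E64d replicate 3 met. Its log2 fold change was −0.24 ± 0.0724 (SE), with an adjusted p of 0.0754 by edgeR and of 0.0358 with the block.

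The gene rpl3, whose product reaches toward the peptidyl transferase centre, measured 3045, 5209, 3744 and 3033 CPM in DMSO and 2872, 3064, 2995 and 2912 CPM in E64d. DMSO replicate 2 stood far above all others, and E64d replicate 2 lay above 2 DMSO libraries. The 5S ribonucleoprotein is built by rpl5a, rpl5b and rpl11 and, when free of the ribosome, binds Mdm2 and thereby stabilises p53. For rpl11 the levels were 837, 1157, 933 and 861 CPM in DMSO and 811, 819.8, 813 and 770.4 CPM in E64d, with no overlap, a log2 fold change of −0.24 ± 0.0938 (SE) and an adjusted p of 0.170 by edgeR (−0.12 without DMSO replicate 2). The 2 copies of rpl5 had log2 fold changes of −0.24 ± 0.109 (SE) for rpl5a and −0.09 ± 0.0835 (SE) for rpl5b, neither called. Without DMSO replicate 2 they were −0.10 and 0.01.

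The acidic stalk recruits the elongation factors to the large subunit; rplp0 is its base, and rplp1 and rplp2 with its relative rplp2l form the flexible arms. The base rplp0 measured 3263, 4148, 3393 and 3132 CPM in DMSO and 3269.6, 3321, 3066 and 2976 CPM in E64d, and the groups overlapped (log2 fold change −0.14 ± 0.0870, SE, and −0.04 without DMSO replicate 2). For rplp2l the values were 687, 1379.8, 927 and 682 CPM in DMSO and 624, 612, 667 and 626 CPM in E64d. All E64d pools lay below all DMSO pools, and DMSO replicate 2 was 1.80 times the mean of the other DMSO libraries, the largest such ratio among the members. Its log2 fold change, −0.54 ± 0.180 (SE), had an adjusted p of 0.104 by edgeR and was −0.27 (adjusted p = 0.135) without that library. The arm gene rplp1 had a log2 fold change of −0.42 ± 0.165 (SE), and rplp2 one of −0.31 ± 0.153 (SE); neither passed without the block, and rplp1 passed with it (adjusted p = 0.0399 by edgeR). Without DMSO replicate 2 they were −0.18 and −0.08.

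Of the small subunit members, rps19, the gene first found mutated in human Diamond-Blackfan anaemia, measured 675, 1134, 821 and 711 CPM in DMSO and 621, 654, 626 and 626 CPM in E64d. Again no E64d library reached the lowest DMSO library in TMM-scaled CPM. The log2 fold change was −0.40 ± 0.132 (SE), with an adjusted p of 0.0969 by edgeR, and −0.22 (adjusted p = 0.0863) without DMSO replicate 2. With the block the adjusted p was 0.0203. The gene rps6, whose product is the classical substrate of the S6 kinases below mTORC1, measured 1585, 2690.0, 1829 and 1568 CPM in DMSO and 1433, 1563, 1496 and 1435 CPM in E64d. The groups were separate, though DMSO replicate 4 and E64d replicate 2 nearly touched. Its log2 fold change of −0.37 ± 0.143 (SE) had an adjusted p of 0.156 by edgeR, and of 0.0321 with the block; without DMSO replicate 2 it was −0.16.

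The products of rps2, rps3 and rps9 line the entry of the mRNA channel, and that of rps26 lies at its exit. The gene rps2 measured 3103, 5394, 3791 and 3327 CPM in DMSO and 2905, 3154, 3013 and 2971 CPM in E64d; its groups met at DMSO replicate 1 and E64d replicate 2. The gene rps3 had a log2 fold change of −0.35 ± 0.130 (SE) and rps9 one of −0.41 ± 0.158 (SE). For rps26 the level was 183, 374, 243 and 206 CPM in DMSO and 172, 201, 196 and 184 CPM in E64d. E64d replicates 2, 3 and 4 lay above DMSO replicate 1, and the adjusted p was 0.198 by edgeR. All 4 of these genes passed with the block. Without DMSO replicate 2 the log2 fold changes of rps2, rps3, rps9 and rps26 were −0.17, −0.16, −0.17 and −0.16, against −0.37 and −0.42 for rps2 and rps26 with it.

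The gene rpsa, whose product also carries the name laminin receptor, measured 2679, 3693, 2779.7 and 2623 CPM in DMSO and 2539.6, 2708, 2406 and 2478 CPM in E64d. Apart from DMSO replicate 2 its groups lay close together and overlapped (−0.22 ± 0.101 in log2, SE, with an adjusted p of 0.257 by edgeR, and −0.08 without DMSO replicate 2). The gene rps27a, which encodes ubiquitin fused to a ribosomal protein, measured 1129.5, 1271, 1246 and 1177 CPM in DMSO and 1111, 1127, 1126 and 1134 CPM in E64d. Its log2 fold change of −0.10 had a 95% interval from −0.23 to 0.03.

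A smaller set of members lay the other way or near 0. The highest was rps27l, a relative of rps27 that p53 activates in human cells, with 19.8, 17.9, 17.7 and 17.9 CPM in DMSO and 21.6, 23.5, 22.9 and 17.8 CPM in E64d. Of the E64d libraries 3 lay above all DMSO libraries and the fourth was level with them, and the log2 fold change of 0.23 ± 0.107 (SE) had an adjusted p of 0.263 by edgeR. The large subunit genes rpl28 and rpl7 had log2 fold changes of 0.14 ± 0.0991 (SE) and 0.14 ± 0.0854 (SE), and the small subunit gene rps4x one of 0.14 ± 0.0840 (SE). Without DMSO replicate 2 these were 0.06, 0.08 and 0.07. These genes were low in DMSO replicate 2: rpl28 measured 595, 461, 525 and 672 CPM in DMSO against 625, 642, 614 and 604 CPM in E64d. The lowest DMSO values were those of replicates 2 and 3, and DMSO replicate 4 was above every E64d library.

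The members varied among the DMSO pools more than among the E64d pools. DMSO replicate 2 was the highest library for 61 members (73.5%, against 23.0% of all tested genes) and the lowest for 9 (10.8%, against 23.3%). Its ratio to the mean of the other DMSO libraries had a median of 1.21 over the members and of 0.990 over all genes, from 0.260 for rps8b to 1.80 for rplp2l. It exceeded 1.2 in 42 members (50.6%, against 23.4% of all genes), among them rpl3, rpl22l1, rps3, rps6 and rps9. DMSO replicate 3 lay above the mean of DMSO replicates 1 and 4 in 41 of those 42 (97.6%, against 55.9% of all genes with such a ratio) and in 15 of the 24 with a ratio from 1 to 1.2 (62.5%, against 54.2%). It lay below that mean in 16 of the 17 members that were lower in DMSO replicate 2 than in the others (94.1%, against 54.8%). The SD of log2(CPM) was larger in DMSO than in E64d for 78 members (94.0%, against 62.4% of all genes), and for 68 (81.9%, against 50.1%) without DMSO replicate 2. The median SD was 0.168 in DMSO, 0.0901 without DMSO replicate 2, and 0.0501 in E64d. That library also had the most counts of its group, 36981105 against 31874125 to 33510624 in the other DMSO libraries, and the low share of mitochondrial counts; the part of either in the result was not tested.

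The median log2 fold change was −0.15 for large and −0.15 for small subunit members, with 41 of 48 and 32 of 35 below 0; without DMSO replicate 2 the medians were −0.07 and −0.09. The ratio of large to small subunit counts was 1.49, 1.40, 1.47 and 1.49 in DMSO replicates 1 to 4 and 1.52, 1.501, 1.52 and 1.51 in E64d replicates 1 to 4, means of 1.46 ± 0.0434 and 1.51 ± 0.00873 (SD, n = 4). All E64d ratios lay above all DMSO ratios, also without DMSO replicate 2, whose value was the lowest; no p is given for a sum over the members. The difference was 0.0521, and 0.0309 without DMSO replicate 2. Large subunit members took 4.64% ± 0.363 of all counts in DMSO and 4.44% ± 0.0860 in E64d, and small subunit members 3.19% ± 0.352 and 2.94% ± 0.0693 (SD, n = 4), with overlap in both. Between same-numbered libraries the ratio was higher in E64d in 4 of 4 pairs, the large subunit share lower in 3 and the small subunit share lower in 4.

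**Figure D3:**
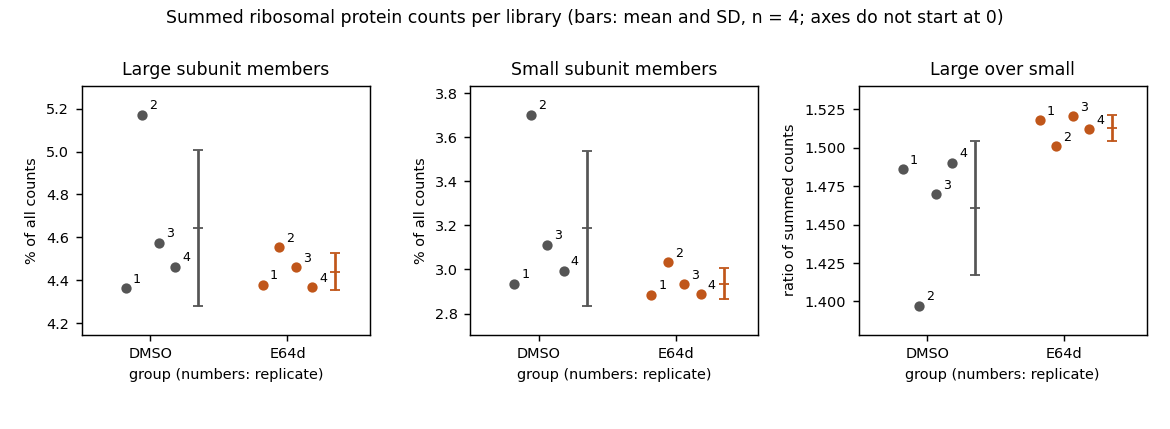
Share of all counts in the large subunit members and in the small subunit members, and the ratio of their summed counts, for each library (points, numbered by replicate), with the mean and SD of each group (bars, n = 4). The shares overlap and DMSO replicate 2 is the highest in both, while the 4 E64d ratios, 1.501 to 1.52, all lie above the 4 DMSO ratios, 1.40 to 1.49.

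Ratios of paralogs need no scaling between libraries. They were compared for 9 pairs by a 2-sided exact permutation test, whose smallest possible p with 4 against 4 libraries is 0.0286. The test did not use the replicate numbers, although these were taken to pair the libraries. None of the 9 passed after Benjamini-Hochberg adjustment. The groups did not overlap for 3 pairs, each with p = 0.0286 and an adjusted p of 0.0857 by the exact test. The ratio of rpl7 to rpl7l1 counts was 12.7, 9.48, 11.8 and 14.1 in DMSO and 15.7, 15.4, 15.3 and 18.4 in E64d, a log2 difference of 0.44 (0.33 without DMSO replicate 2). The ratio was higher in every E64d library, with rpl7 itself at 1176, 976, 1064 and 1304 CPM in DMSO and 1228, 1287, 1189 and 1277 CPM in E64d.

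The ratio of rpl5a to rpl5b was 0.911, 1.06, 1.00 and 0.934 in DMSO and 0.882, 0.865, 0.907 and 0.888 in E64d, a log2 difference of −0.14. Every E64d ratio lay below every DMSO ratio. For rplp2 to rplp2l the ratio was 0.318, 0.294, 0.298 and 0.349 in DMSO and 0.360, 0.393, 0.354 and 0.350 in E64d, a log2 difference of 0.21, with DMSO replicate 4 and E64d replicate 4 nearly level. Both of these also did not overlap without DMSO replicate 2, at log2 differences of −0.10 and 0.18.

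The other 6 pairs overlapped. The tandem-named copies rps27.1 and rps27.2 kept a ratio of 1.95 to 2.12 in DMSO and 1.95 to 2.10 in E64d, a log2 difference of −0.00. Against the distant relative rps27l both were lower in E64d, with log2 differences of −0.37 for rps27.1 and −0.36 for rps27.2 (p = 0.0571 and adjusted p = 0.103 by the exact test for each); these pairs share rps27l and are not independent. The pair rpl22 and rpl22l1 differed by a log2 of 0.13, and of 0.020 without DMSO replicate 2. The ratio ran from 1.04 to 1.54 in DMSO, with DMSO replicates 2 and 3 low, and from 1.32 to 1.51 in E64d. The pair rps26 and rps26l differed by −0.30, and by −0.12 without DMSO replicate 2, with the ratio from 0.382 to 0.710 in DMSO, highest in replicate 2, and from 0.372 to 0.428 in E64d.

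**Figure D4:**
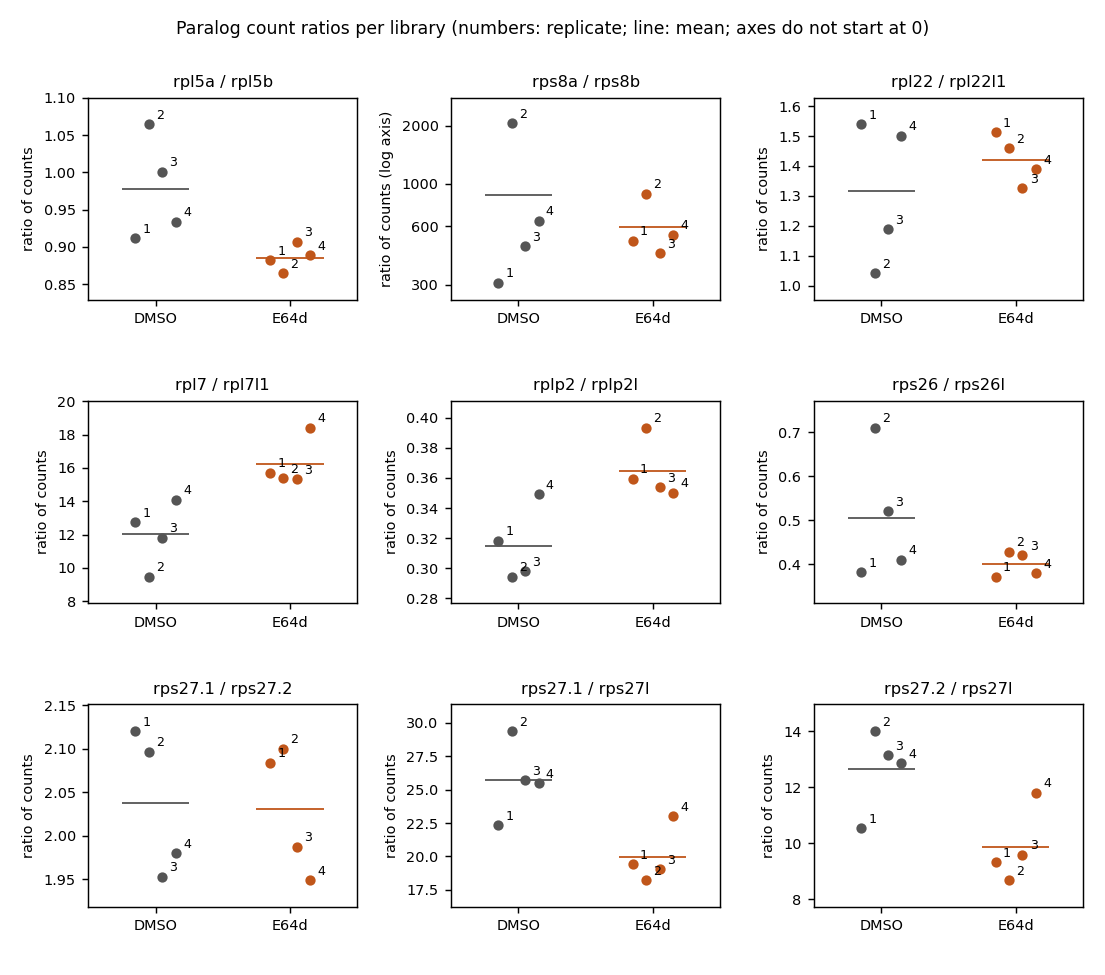
Ratio of counts of the 9 paralog pairs in each library (points, numbered by replicate) with the mean of each group (lines), on linear axes except for rps8a to rps8b, which is on a log axis. Groups are separate for rpl5a to rpl5b, rpl7 to rpl7l1 and rplp2 to rplp2l and overlap in the other 6 panels.

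The copy rps8b had few counts, with 2.78, 0.525, 1.90 and 1.37 CPM in DMSO and 1.65, 0.966, 2.00 and 1.54 CPM in E64d; its log2 fold change of −0.09 had a 95% interval from −1.04 to 0.85 (−0.38 without DMSO replicate 2), and a change within that range was not detectable at this depth. In both groups replicate 2 was the lowest. Reads of near-identical copies may have been split or dropped in counting, where the handling of multi-mapping reads is not stated. Values of rpl5a, rpl5b, rps27.1, rps27.2, rps26 and rps26l are uncertain to that extent. Sequences were not compared here, so this may hold for other paralogs too, rplp2 and rplp2l among them. By the RefSeq gene order of the assembly GRCz12tu, rplp2 and rps26l were the only members next to each other, and no paralog pair with known positions shared a chromosome.

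Related gene lists were set beside the members and read against the 6.13% of all tested genes called, 2.28% higher and 3.85% lower. Of 106 ribosome biogenesis genes, which process ribosomal RNA and assemble the subunits, 25 fell, 0 rose and 81 did not pass (median log2 fold change −0.26). Without DMSO replicate 2, 25 fell. The nucleolar protein gene ncl, whose product acts on ribosomal RNA transcription and processing, measured 1589.6, 2216, 1753 and 1621 CPM in DMSO and 1255, 1296, 1249 and 1223 CPM in E64d, without overlap. Its log2 fold change was −0.52 ± 0.0960 (SE), with an adjusted p of 0.00688 by edgeR. Among the others that fell were fbl, the methyltransferase of box C/D particles (−0.48 ± 0.0871, SE), nop56, its partner (−0.46 ± 0.0990, SE), npm1a, a nucleolar chaperone (−0.32 ± 0.0733, SE), and grwd1, whose yeast relative Rrb1 escorts Rpl3 (−0.46 ± 0.0803, SE). The list's count was 15 without E64d replicate 1 or 2, 13 without E64d replicate 3, and 8 without E64d replicate 4. Calls lower over all tested genes also fell, from 853 to 508, 480, 497 and 367 without E64d replicates 1, 2, 3 and 4. The list's count was 16 where libraries were scaled by their totals, and with the replicate block 49 fell.

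The proteins of the mitochondrial ribosome are encoded in the nucleus by a separate gene set. Of 74, 18 fell and 0 rose (median −0.29), among them mrpl46 at 20.2, 22.3, 21.1 and 18.7 CPM in DMSO and 13.2, 15.2, 13.9 and 13.7 CPM in E64d. The count was 12 without DMSO replicate 2, 7 without DMSO replicate 3 or E64d replicate 2, 8 without E64d replicate 1 or 3, 3 without E64d replicate 4, and 30 with the replicate block. Over all tested genes, calls lower numbered 744 without DMSO replicate 2, 499 without DMSO replicate 3 and 367 without E64d replicate 4. Of 10 other mitochondrial translation genes, 3 fell, including the elongation factor gfm1 (−0.48 ± 0.0861, SE).

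Of 46 initiation factors, which bring mRNA and the first tRNA to the small subunit, 7 fell and 0 rose (median −0.13), among them the helicase eif4a1a at 841, 794, 785 and 835 CPM in DMSO and 683, 681, 627 and 607 CPM in E64d. The count was 13 with the block, 4 without DMSO replicate 3 or E64d replicate 2, 3 without E64d replicate 1 or 3 and 1 without E64d replicate 4. Calls lower over all tested genes also fell in these omissions, as given above. The call of eif4a1a was lost without E64d replicate 4 (adjusted p = 0.0574 by edgeR) and under library totals alone (adjusted p = 0.0527). Of 16 elongation factors 1 rose, eef2l2, a relative of the translocation factor eef2 (0.42 ± 0.0936, SE), a call lost without E64d replicate 2 or 4 (adjusted p = 0.0646 and 0.0700 by edgeR). The factors eef1a1l1 and eef2b had log2 fold changes of −0.08 ± 0.0910 (SE) and −0.09 ± 0.0810 (SE) and were not called; without DMSO replicate 2 they were 0.03 and −0.00. Of 35 subunits and factors of RNA polymerases I and III, 1 rose, the polymerase III factor brf1a (0.94 ± 0.157, SE), and 1 fell, the polymerase I factor ubtf (−0.43 ± 0.0971, SE). The call of ubtf was lost without E64d replicate 2, 3 or 4 (adjusted p from 0.0523 to 0.0773 by edgeR). The shares called among elongation factors and among polymerase genes were close to that of all tested genes, but most of these genes lay below 0. The median was −0.10 for elongation factors (−0.05 without DMSO replicate 2), with 12 of 16 below 0. It was −0.18 for polymerase genes, with 29 of 35 below 0, against 0.01 for all tested genes. At an unadjusted p under 0.05 by edgeR, 10 polymerase genes were lower and 1 higher, where 11.4% of all tested genes were lower.

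Of 11 partners of the ribosome outside the name rule, 2 fell, the RNA-binding protein gene hnrnpa1a (−0.42 ± 0.0792, SE) and the histone chaperone gene nap1l1 (−0.29 ± 0.0709, SE). Neither rack1, on the small subunit, nor faua was called, with log2 fold changes of −0.07 ± 0.0764 (SE) and 0.07 ± 0.0717 (SE), and 0.00 and 0.03 without DMSO replicate 2. Of 27 genes of mTORC1 and its regulators 1 rose, the ribosomal S6 kinase gene rps6ka3b (0.50 ± 0.137, SE, adjusted p = 0.0498 by edgeR), a call lost in 6 of the 8 omissions of 1 library. The binding protein larp1 had a log2 fold change of −0.25 ± 0.0691 (SE), with an adjusted p of 0.0518. Of 20 ribosome surveillance genes 1 rose, the ubiquitin ligase rnf25 (0.49 ± 0.118, SE), a call lost in 5 of the 8 omissions. The shares called in both lists were below that of all tested genes.

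Of 24 genes of p53 and its targets, 1 rose and 2 fell, with a median of 0.17. Of the 24, 17 lay above 0 and 7 below. At an unadjusted p under 0.05 by edgeR, 7 were higher and 3 lower. Of all 22163 tested genes, 1901 were higher and 2526 lower by that measure. The stress gene sesn1 rose (0.58 ± 0.105, SE), and the ribonucleotide reductase gene rrm2b and the replication clamp gene pcna fell (−0.60 ± 0.0933 and −0.41 ± 0.0901, SE). The gene pcna is also among the cycling markers below and is counted in both lists. The p53 target genes mdm2, its inhibitor, and cdkn1a, a cell cycle inhibitor, were not called: mdm2 had a log2 fold change of 0.15 ± 0.0776 (SE) and cdkn1a one of 0.49 ± 0.226 (SE).

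**Figure D5:**
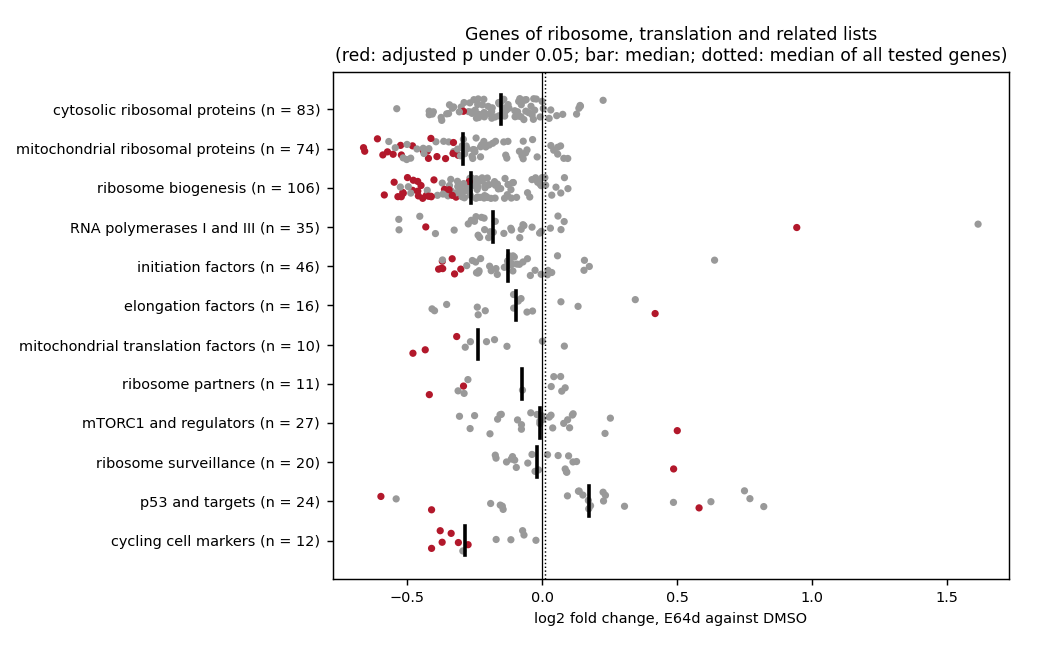
log2 fold change of every tested gene (points) of the members and of 11 related lists, with the median of each list (black bar) and of all tested genes (dotted line), and genes with an adjusted p under 0.05 in red. The members centre at −0.15 with 1 red point, the mitochondrial ribosomal proteins at −0.29 with 18 and the biogenesis genes at −0.26 with 25.

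Cycling cells make many ribosomes. Of 12 cycling markers 6 fell, 0 rose and 6 did not pass, where 3.85% of all tested genes were lower, and their summed level was 4245 to 5007 CPM in DMSO and 3782 to 3944 CPM in E64d, without overlap. Markers of the yolk syncytial layer, the tissue that exports yolk, had 6 of 12 lower and 1 higher, with sums of 16228 to 18481 CPM in DMSO and 12289 to 14956 CPM in E64d. Of the embryonic tissue markers, 1 of 12 neural, 0 of 13 muscle, 0 of 10 erythroid and 1 of 10 epidermal genes were called, and no marker of these lists had a count of 0 in any library. The erythroid markers varied widely between pools, with a median SE of 0.307 against 0.0983 for muscle. The 95% interval was not within 1.5-fold for 8 of the 10 erythroid genes, so a moderate change in them could be missed. It was within 1.5-fold for all 13 muscle genes. The part of cell composition in the members' shift was not tested. In whole embryos fewer cells of a type and less RNA per cell cannot be told apart, and p-values measure the spread between pools.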

How the data were processed

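Total RNA of 8 pools of whole embryos was sequenced, 4 per group. The authors deposited a table of raw read counts, genes in rows and libraries in columns. The submitters' processing notes name STAR 2.7.10b and featureCounts 2.0.6 on the build GRCz11, beside Trim Galore 0.6.10 and FastQC 0.12.1. Which annotation and strand setting were used, and how multi-mapping reads were handled, is not given in the sources used here. A further 6 columns with no sample name were not used. In each library 75.9% to 80.7% of counts from 1 to 20 were even, as arises where both mates of a pair are counted, so halved counts were also tested.

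Counts were tested with edgeR 4.0.16 in R 4.3.3 (filterByExpr defaults, TMM scaling, quasi-likelihood test, Benjamini-Hochberg adjustment over 22163 genes, adjusted p under 0.05), on simulated counts first. SEs and intervals derive from that test. Alternatives were library totals, DESeq2 size factors, TMM without the members, no filter, a stricter filter (at least 10 counts in all 4 libraries of a group), DESeq2 1.42.0, limma 3.58.1 (voom), the replicate block and leaving out each library. Log2 ratios of paralogs used a pseudocount of 1. The labels do not say what a replicate number marks. Deviations from the group means correlated by 0.113 to 0.379 between same-numbered libraries and by −0.210 to 0.0555 between others, and each of the 8 libraries was closest to the one with its own number, so the numbers were taken to pair the libraries.

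The members and the gene lists were chosen with earlier results of these data known. Of 461 listed names in 16 lists, 434 matched by their own name and 6 by a RefSeq synonym (GRCz12tu), and 21 did not match. The genes to be named were the called members, all paralog pairs, rpl5a, rpl5b, rpl11, rps6, rps19, rpsa, rplp0, rps27a, and the called gene with the smallest p in each direction from each list; other genes named were chosen after their values were seen. Levels per coding length were not made, since lengths were not used here, so levels are not compared between genes.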

Additional observations from a re-analysis of the deposited data

Results flagged for a closer look

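Within a group of 4 libraries, a library was singled out where its gap to the nearest other exceeded Dixon's critical value for 4 values at the 95% level, as a share of the group's range. Of 92 groups examined 5 met this, and chance gives about 1 in 20. For rpsa it was DMSO replicate 2, the highest at 3693 CPM with the next at 2779.7. For rps19 it was E64d replicate 2 at 654 CPM, with the next at 626, inside a group that spanned 621 to 654. For rps27l it was DMSO replicate 1 at 19.8 CPM, with the next at 17.9. For the ubiquitin ligase gene rnf25 it was E64d replicate 1 at 33.3 CPM, with the next at 27.0. For the ratio of rpl7 to rpl7l1 it was E64d replicate 4 at 18.4, with the next at 15.7.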

How the results depend on the processing

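The median log2 fold change of the members stayed below 0 under every alternative tried, from −0.19 without DMSO replicate 1 to −0.06 under library totals alone, and 0 members were called higher under any of them. The fits with the replicate block and number 2 left out of both groups, or with library totals alone, all alternatives for the related lists and for all genes, and the omissions for the summed share and the subunit ratio were chosen after seeing the data. The causes of the differences below were not tested. Members called lower numbered 1 of 83 in the reported test, where 853 of all 22163 tested genes were lower (3.85%). They numbered 0 under library totals alone, where 498 genes were lower. They numbered 0 with no filter on low counts and 1 with limma-voom (rpl7l1). In each of these 2 fits slightly fewer genes were lower than in the reported test. Members called lower numbered 6 of 83 with DESeq2 (rpl23, rpl29, rpl34, rpl36a, rpl7l1 and rps19), where 1358 of the 22163 genes were lower, a similar share. They numbered 0 to 6 with 1 library left out, where 367 to 836 genes were lower. With the replicate block they numbered 19, where 6.95% of all tested genes were lower. With the block and number 2 left out they numbered 20, where 6.91% were lower. With the block and library totals alone they numbered 2, for which no share of all genes is given. The median of the small subunit members was −0.064 under library totals alone and −0.063 with the block as well. With 1 library left out it ran from −0.18 to −0.09, that of the large subunit members from −0.19 to −0.07 and that of all members from −0.19 to −0.08.

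Over all genes, calls higher and lower numbered 506 and 853. They were 803 and 498 under library totals alone, 851 and 1358 with DESeq2, 1040 and 1540 with the replicate block, and 1075 and 1534 with the block and number 2 left out; 1706 were higher with the block and library totals alone. Calls higher ran from 288 to 560 and calls lower from 367 to 836 with 1 library left out.

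Of the related lists, biogenesis genes called numbered 16 under library totals alone, 42 with DESeq2, 49 with the block, 48 with the block and number 2 left out, and 8 to 30 with 1 library left out. Mitochondrial ribosomal proteins numbered 10 under library totals alone, 29 with DESeq2, 30 with the block and 3 to 15 with 1 library left out. Initiation factors numbered 2, 11, 13 and 16 under library totals alone, DESeq2, the block and the block without number 2, and 1 to 8 with 1 library left out. RNA polymerase genes numbered 8 with DESeq2, 6 with the block with or without number 2, and 1 to 4 with 1 library left out. Elongation factors numbered 2 with no filter, with the stricter filter and with the block under library totals alone, 3 with DESeq2 and with voom, 4 with the block with or without number 2, and 0 to 2 with 1 library left out. Ribosome partners numbered 1 under library totals alone, 4 with the block with or without number 2, and 1 to 3 with 1 library left out. Genes of mTORC1 and its regulators numbered 0 with DESeq2 size factors in edgeR, 2 with the stricter filter, with DESeq2 and with the block under library totals alone, 3 with the block, 4 with the block without number 2, and 0 to 1 with 1 library left out. Surveillance genes numbered 2 with the block without number 2 and 0 to 1 with 1 library left out. Genes of p53 and its targets numbered 7 with DESeq2, 5 with the block, 8 without number 2, 10 with the block under library totals alone, and 2 to 4 with 1 library left out. Mitochondrial translation factors numbered 5 with the block with or without number 2, and 2 with any 1 library left out.

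For single members, the fold change of rpl5b turned to 0.0020 under library totals alone, 0.0052 with the block as well and 0.0059 without DMSO replicate 2 (−0.13 to 0.0059 with 1 library left out), and that of rps26l to 0.017 under library totals alone and 0.018 with the block as well. That of rps8b, the member with the fewest counts, turned to 0.12 with limma-voom, 0.048 with the replicate block, 0.13 with the block under library totals alone, 0.29 without DMSO replicate 1 and 0.08 without E64d replicate 2 (−0.38 to 0.29 with 1 library left out). For the other members and genes that the naming rule chose, the direction was kept under every alternative tried. Genes named after their values were seen were not followed through all alternatives. Among these, eef1a1l1 turned in direction without DMSO replicate 2. The genes rack1 and eef2b lost nearly all of their change without that library. The summed share of the members was lower in E64d by 0.106 to 0.631 percentage points with 1 library left out, and the subunit ratio higher by 0.0309 to 0.0620. Paralog log2 differences with 1 library left out ran from −0.57 to 0.33 for rps8a to rps8b, whose sign thus depends on DMSO replicate 2, and from −0.02 to 0.01 for rps27.1 to rps27.2; the other 7 pairs kept their sign. The 18 to 88 counts of rps8b limit what can be said of it, and counts are not independent molecules.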
